A study of Mus musculus with 4 samples.

Results

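Hormone-sensing luminal cells of mouse mammary tumors were chosen from single-cell RNA counts by their own transcripts, with no upper limit on how many genes or transcripts a cell could hold. A cell barcode entered at 1000 or more unique molecular identifiers (UMIs, 1 per captured transcript) with at most 20% of them from mitochondrial genes. The epithelial gate asked for at least 10 UMIs of Epcam, Krt8 and Krt18 together per 10000, which 10968 of 23572 barcodes met. The hormone-sensing gate then asked for at least 10 UMIs of Prlr, Cited1 and Foxa1 together per 10000, at least 2 of these 3 genes detected, and no UMI of Ptprc, the gene of the leukocyte antigen CD45. It held 410 cells, and the other 10558 cells of the epithelial gate served as the comparison. Esr1, Pgr and Frmd8 took no part in the choice.

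The tumors came from littermate mice of 17 to 18 weeks that carried PyMT, a viral oncogene driven in mammary epithelium by the MMTV promoter, and 2 floxed alleles of Frmd8, which codes for a FERM domain protein. Controls were MMTV-Cre-; Frmd8 fl/fl; PyMT (Cre-, replicates 1 and 3) and knockouts were MMTV-Cre+; Frmd8 fl/fl; PyMT (Cre+, replicates 2 and 4), in which the MMTV promoter also drives Cre recombinase in luminal cells. Each library was 1 droplet capture of sorted tumor cells, and the series' design counts 4 tumors, 1 to a library. Both groups share the oncogene and the floxed alleles and differ in Cre.

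In the mammary gland, hormone-sensing luminal cells carry the receptors for estrogen (Esr1), progesterone (Pgr) and prolactin (Prlr), and they pass hormonal signals to neighbouring cells through secreted factors such as amphiregulin (Areg) and Wnt4. Foxa1 is a pioneer factor that opens chromatin for the estrogen receptor, and Cited1 is a transcriptional co-regulator found in the same cells. The other luminal lineage, the progenitor and alveolar cells, is marked by Elf5, Kit and milk protein genes.

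Library totals lay between 112729231 and 157662955 UMIs, and 4922 to 7123 barcodes per library passed the first limits. Cre+ replicate 4 had been deposited with all 2582424 barcodes and the other libraries with 7020 to 8017 called cells each, so the form of the file overlaps in part with genotype. In that library, barcodes of at most 100 UMIs, which are mostly empty droplets, held per 10000 UMIs 4.09 of Epcam, 6.4 of Krt8, 13.3 of Krt18 and 0.128 of Prlr. The libraries shared 6 to 16 barcodes per pair, and no hormone-sensing barcode of one was a hormone-sensing barcode of another. The labels were set against 2 genes. Frmd8, summed over all cells, had 25.1 and 24.7 UMIs per 1000000 (CPM) in Cre- replicates 1 and 3, and 11.3 and 12.9 CPM in Cre+ replicates 2 and 4. The agouti gene a, a coat colour gene looked at after its values were seen, because the littermates' genotypes were told apart by coat colour, had 536 and 111 CPM in the other epithelial cells of Cre+ replicates 2 and 4 against 0.299 and 0.207 in Cre- replicates 1 and 3.

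The hormone-sensing cells were very unevenly spread over the libraries. The first Cre- library held 323 of them among 2526 epithelial-gate cells, a share of 12.8% with an exact binomial (Clopper-Pearson) 95% interval of 11.5 to 14.2%. Cre+ replicate 2 held 81 of 2568, or 3.15% (2.51 to 3.91%). Cre- replicate 3 held 6 of 2674, or 0.224% (0.0824 to 0.488%). Cre+ replicate 4 had 0 of 3200 cells, with an upper bound of 0.115% on the same interval and a floor of 3 counts at 0.0938%. With only its barcodes of more than 10978 UMIs kept, that library had 0 of 1643, with an upper bound of 0.224%. The highest and the 2 lowest shares thus did not sort by genotype. Cre- tumors averaged 6.51% ± 8.88 and Cre+ tumors 1.58% ± 2.23 (SD over 2 libraries each), and the difference of -4.93 percentage points was smaller than the spread between Cre- libraries (exact permutation test, two-sided p = 0.667, where 2 against 2 libraries allow no p under 1 in 3). Without Cre- replicate 1 the difference turned to 1.35 percentage points. The intervals cover counting error only.

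**Figure D1:**
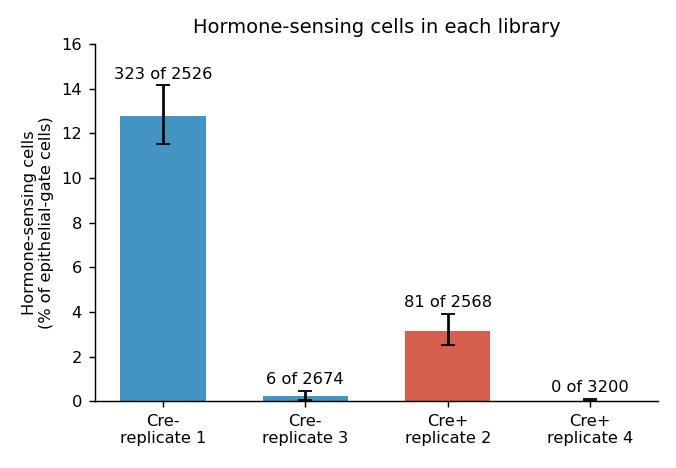
Share of hormone-sensing cells among epithelial-gate cells (percent) in each of the 4 libraries, blue for Cre- and red for Cre+; lines are exact binomial 95% intervals and the numbers above are the cell counts. Cre- replicate 1 stands at 12.8% and Cre+ replicate 4 at 0.

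The values that chose the cells are given as a description only. Of the 410 cells, 293 had all 3 markers, and the median summed level of Prlr, Cited1 and Foxa1 per 10000 UMIs was 28.3 for Cre- replicate 1, 17.4 for the 6 cells of Cre- replicate 3 and 25.8 for Cre+ replicate 2. Just inside the limit, from 10 to 12 per 10000, lay 22 cells, and just outside it, from 8 to 10, lay 15. A further 30 cells reached the level with 1 marker alone, and 29 were set aside for a Ptprc UMI.

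Promoter windows from RefSeq (build GRCm38.p6, from 250 bases before to 50 bases after the start of transcription) are shown for genes the results turn on, with motifs of the factors that act in these cells. Only windows that held a match were picked for display, so their matches do not show how common a motif is. Prolactin signals through Jak2 to STAT5, whose family binds TTCNNNGAA. This motif, whose letters read alike on either strand, was in 8.3% of 32851 windows. Counted by gene, it was in any window of 9.55% of 27025 genes. Foxa1 binds forkhead sites, searched as TGTTTAC on either strand and found in 3.65% of windows. The first sequence is the Prlr window at chr15:10223656-10223955, with the forkhead match in capitals, and the others are windows of Esr1 at chr10:4709908-4710207, Reg3b at chr6:78370635-78370934 and Fgb at chr3:83049814-83050113 (minus strand, shown 5′ to 3′), with the STAT-type match in capitals.
Prlr: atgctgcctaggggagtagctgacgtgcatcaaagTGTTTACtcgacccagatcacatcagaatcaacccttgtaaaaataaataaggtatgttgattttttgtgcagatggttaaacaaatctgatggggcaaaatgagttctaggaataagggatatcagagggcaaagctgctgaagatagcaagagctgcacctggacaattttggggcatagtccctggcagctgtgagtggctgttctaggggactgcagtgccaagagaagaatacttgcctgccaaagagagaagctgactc
Esr1: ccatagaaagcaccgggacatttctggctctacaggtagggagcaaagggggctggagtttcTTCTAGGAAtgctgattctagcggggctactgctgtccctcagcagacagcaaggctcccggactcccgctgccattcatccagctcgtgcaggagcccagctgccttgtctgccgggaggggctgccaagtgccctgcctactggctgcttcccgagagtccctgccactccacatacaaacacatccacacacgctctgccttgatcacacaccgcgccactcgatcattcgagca
Reg3b: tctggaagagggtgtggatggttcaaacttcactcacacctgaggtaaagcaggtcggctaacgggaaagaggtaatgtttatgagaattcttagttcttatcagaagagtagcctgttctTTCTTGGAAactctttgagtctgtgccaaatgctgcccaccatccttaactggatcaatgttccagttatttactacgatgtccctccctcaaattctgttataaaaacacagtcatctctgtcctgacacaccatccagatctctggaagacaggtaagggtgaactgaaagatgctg
Fgb: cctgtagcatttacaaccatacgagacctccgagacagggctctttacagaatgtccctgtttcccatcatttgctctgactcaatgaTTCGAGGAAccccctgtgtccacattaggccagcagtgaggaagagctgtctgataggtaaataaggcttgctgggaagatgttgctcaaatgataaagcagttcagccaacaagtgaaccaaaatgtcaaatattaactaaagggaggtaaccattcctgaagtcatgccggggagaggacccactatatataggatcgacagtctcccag
Of the 10 genes with the largest increase named below, 8 had a window, and 3 of these (Fgb, Muc13 and Reg3b) held the STAT-type motif. Of the 10 with the largest decrease, all had a window and 2 (Csn1s1 and Gm35696) held it, against 8.35% of the 11662 tested genes with a window. The forkhead motif was in 0 of the 8 windows of the largest increases and 0 of the 10 of the largest decreases. Of the prolactin pathway genes only Elf5, Jak2, Socs2 and Socs3 were searched, and all but Socs2 had a window. Among these 3, 0 held the forkhead motif and 1 (Socs3) the STAT-type motif. A match is a description of letters and not a bound site.

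Hormone-sensing cells were deep. Their median UMI count was 40181 and 42011 in Cre- replicates 1 and 3 and 34616 in Cre+ replicate 2, whereas the other epithelial cells of the 4 libraries had medians of 11581 to 19797. Above the study's own upper limits, taken as more than 5000 genes or at least 30000 UMIs, lay 225 of 323 cells (69.7%) and 3 of 6 in the Cre- libraries and 54 of 81 (66.7%) in Cre+ replicate 2, together 282 of 410. Among other epithelial cells the same shares were 43.5%, 37.3% and 32.1%. The difference averaged 30.4 percentage points ± 5.92 (SD) over the 2 libraries with at least 10 hormone-sensing cells, and was positive in both, with an exact sign-flip permutation p of 0.5, the smallest that 2 libraries allow.

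The gate itself needs 2 genes to be detected, which a shallow cell can fail. When every cell was first thinned at random to 1000 UMIs and gated on those, the difference in depth was 22.6 percentage points in Cre- replicate 1 and 38.8 in Cre+ replicate 2. Read the other way, hormone-sensing cells made up 7.98% of epithelial-gate cells under 5000 UMIs, 7.92% from 5000 to 30000, 19.2% from 30000 to 60000 and 20.8% above that in Cre- replicate 1. In Cre+ replicate 2 these shares were 1.53%, 1.95%, 4.76% and 11.5%. Doublets were scored against simulated ones, and removing the highest-scoring cells took 19 of 323 and 6 of 81 hormone-sensing cells and left shares over the limits of 68.1% and 65.3%.

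**Figure D2:**
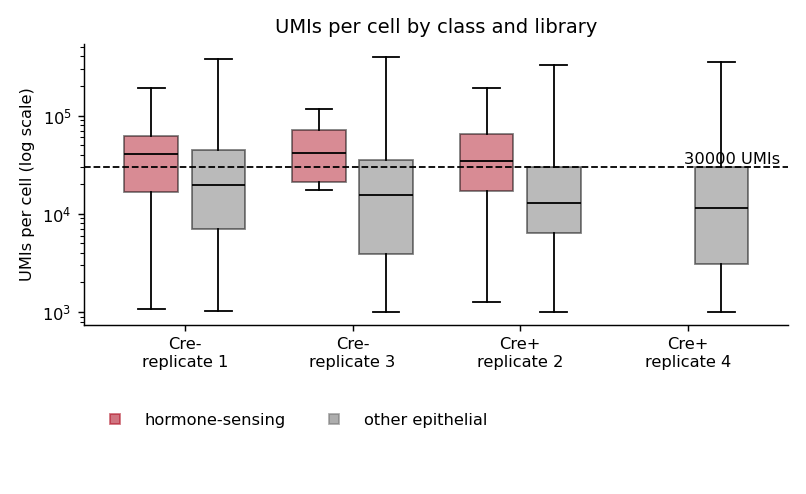
UMIs per cell (log axis) of hormone-sensing (red) and other epithelial cells (grey) in each library; boxes span the quartiles with the median, whiskers run from the lowest to the highest cell, and the dashed line marks 30000 UMIs. The 3 hormone-sensing medians lie between 34616 and 42011 and the grey medians between 11581 and 19797.

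Transcripts of both steroid receptors left out of the gate were found in most of these cells. Counting all UMIs, Esr1 was detected in 237 of 323 and 5 of 6 hormone-sensing cells of the Cre- libraries and in 56 of 81 of Cre+ replicate 2, and Pgr in 288, 5 and 63. Both receptors were found together in 233, 4 and 50 cells and neither in 31, 0 and 12. Since deeper cells show more genes, each cell was also thinned to 2000 UMIs. Esr1 was then detected in 13.3% of 308 and 12.7% of 79 hormone-sensing cells of Cre- replicate 1 and Cre+ replicate 2, against 0.841% and 0.772% of other epithelial cells and 1.19% and 1.09% of leukocytes (cells with Ptprc, median 7721 and 12211 UMIs), set here as the background class, where hormone-sensing medians were 40684 and 35248 UMIs. Pgr was detected in 28.2% and 15.2% against 1.14% and 1.11% of other epithelial cells and 0.133% and 0% of leukocytes. The difference from other epithelial cells averaged 12.2 percentage points for Esr1 and 20.6 ± 9.22 (SD, n = 2) for Pgr, both positive in 2 of 2 libraries (exact sign-flip permutation p = 0.5, the smallest possible). After thinning, the shares of other epithelial cells for Esr1 lay at or below those of leukocytes in these libraries. Leukocytes held Esr1 more often than Pgr, so their share is not a clean background for Esr1. Whether the Esr1 UMIs of other epithelial cells are background was not tested.

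Gene levels were then compared on counts summed per library and class, with the library as a block, in the 2 libraries with at least 10 hormone-sensing cells (edgeR quasi-likelihood test, Benjamini-Hochberg adjusted p under 0.05). Of 15539 genes tested, 1972 (12.7%) were higher and 2316 (14.9%) lower in hormone-sensing cells, and the median log2 fold change over all genes was -0.05. With the 6 cells of Cre- replicate 3 added as a library, 1733 of 15084 (11.5%) were higher and 2317 (15.4%) lower, and 3672 of the first set kept their call and direction. Since the choice of cells and lists was made with results of these data in view, the counts below are descriptions to be read against these percentages. Only 2 tumors stand behind the main test, and the spread is shared over genes.

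Of 8 nuclear hormone receptor genes, 3 rose and 3 fell. Esr1 stood at 56.9, 35.3 and 61.1 CPM in hormone-sensing cells of Cre- replicates 1 and 3 and of Cre+ replicate 2, an order kept below, and at 0.376 to 3.37 CPM in the other epithelial cells of the 4 libraries. The ranges did not overlap, and the log2 fold change was 4.18 ± 0.18 (SE; edgeR adjusted p = 4.28e-06). Pgr stood at 169, 60.9 and 78.3 CPM against 0.209 to 6.08, a log2 fold change of 4.47 ± 0.21 (edgeR adjusted p = 5.24e-06). Cre- replicate 1 had the highest level of the 3. Thra, a thyroid hormone receptor, rose less, by a log2 fold change of 0.99 ± 0.17 (edgeR adjusted p = 0.00355), and that call was lost when the upper limits were applied (0.47, adjusted p = 0.304). The glucocorticoid receptor Nr3c1 fell by 1.52 on the log2 scale, from 43.8 to 59.9 CPM in other cells to 16.9 to 28.9 in hormone-sensing cells. Thrb and Vdr also fell, by 1.83 and 0.72, whereas Esr2 (at most 1 UMI in any hormone-sensing sum) was not called.

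Among 10 transcription factors known from these cells, 6 rose (Gata3, Tbx3, Msx2, Batf, Zfpm1 and Runx1) and 2 fell. Gata3, a luminal lineage factor, had 526, 324 and 548 CPM against 111 to 242 in other epithelial cells, with no overlap and a log2 fold change of 1.28 ± 0.12 (edgeR adjusted p = 0.000126). Tbx3 had 65.8, 80.2 and 61.7 CPM against 0.345 to 10.2, and Msx2 55.2, 60.9 and 43.1 against 1.73 to 2.81. Xbp1, a factor of secretory cells that is also an estrogen target, fell by 1.82 on the log2 scale, to 179 to 278 CPM from 602 to 1275. Tox had no UMI in any hormone-sensing sum and 0.111 to 0.754 CPM in other cells, so only a bound of the fold holds, a log2 value of -1.96 or lower at a floor of 3 counts over the class. Trps1 (-0.25) and Spdef (-0.43) were not called.

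Secreted signals and hormone targets also separated the classes. Areg, an EGF receptor ligand that carries the estrogen signal to neighbouring cells, had 508, 330 and 911 CPM against 11.3 to 25.2 in other epithelial cells, a log2 fold change of 5.35 ± 0.44 (edgeR adjusted p = 6.91e-05). Wnt4, the ligand induced by progesterone, had 270, 305 and 315 CPM against 1.17 to 11.0, a log2 fold change of 5.27 ± 0.30 (edgeR adjusted p = 1.29e-05). For both, every hormone-sensing library lay far above every other sum, and Wnt4 was nearly level between libraries whereas Areg was not. Stc2, a secreted glycoprotein, had 467, 327 and 272 CPM against 1.16 to 21.3. Of 12 estrogen and progesterone targets, 7 rose (Calca, Stc2, Wnt4, Areg, Cish, Ccnd1 and Greb1) and 2 fell (Igfbp4 and Per1), with a median log2 fold change of 1.6. Calca was uneven, at 6.52, 0 and 126 CPM against 0.0138 to 1.67 in other epithelial cells. Of 9 paracrine signals tested, 4 rose, Wnt5a among them at 86.3, 54.5 and 32.4 CPM against 8.2 to 23.8, and Igf1 and Fgf2 fell. Tnfsf11 (RANKL), the main progesterone-driven signal of the normal gland, was at or near 0, with 0.134, 0 and 0.830 CPM in hormone-sensing and 0.0278 to 0.276 CPM in other cells.

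On the prolactin side, 4 of 9 pathway genes rose and 1 fell. Jak2, the kinase bound to the prolactin receptor, had 70.7, 32.1 and 56.1 CPM against 12.2 to 19.4, a log2 fold change of 1.89 ± 0.15 (edgeR adjusted p = 5.80e-05). Its feedback inhibitor genes Cish (1.73) and Socs3 (1.53) rose too, and so did Stat5a (0.85), though Socs3 was not called within the upper limits (0.47, adjusted p = 0.192). Elf5, the alveolar factor that prolactin induces in the other luminal lineage, fell from 140 to 259 CPM to 83.2, 48.1 and 47.3, by 1.90 on the log2 scale. Socs2 was unsteady, at 36.8, 70.5 and 123 CPM against 17.1 to 128.

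Surface and structural genes set the class apart as well. Of 7 tested surface and marker genes, 6 rose and Aqp5, a water channel, fell. Ly6a (Sca-1), by which these cells are sorted, had 1984, 1052 and 1930 CPM against 25.3 to 168, and Fxyd2, a subunit regulating the sodium pump, had 137, 86.6 and 185 against 1.16 to 4.31. Prom1 rose as well, with levels closer together, 128, 76.9 and 47.8 CPM against 28.7 to 43.8. Krt19, a luminal keratin, had 5244, 6743 and 5526 CPM against 38.6 to 248, a log2 fold change of 4.79 ± 0.19 (edgeR adjusted p = 4.10e-06), and Krt7 595 to 1026 against 84.4 to 395. They were among 5 of 8 luminal keratin and adhesion genes that rose (median 0.70). Cldn3 and Cldn7, tight junction genes, were not called, and Muc1 fell by 0.99 on the log2 scale.

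**Figure D3:**
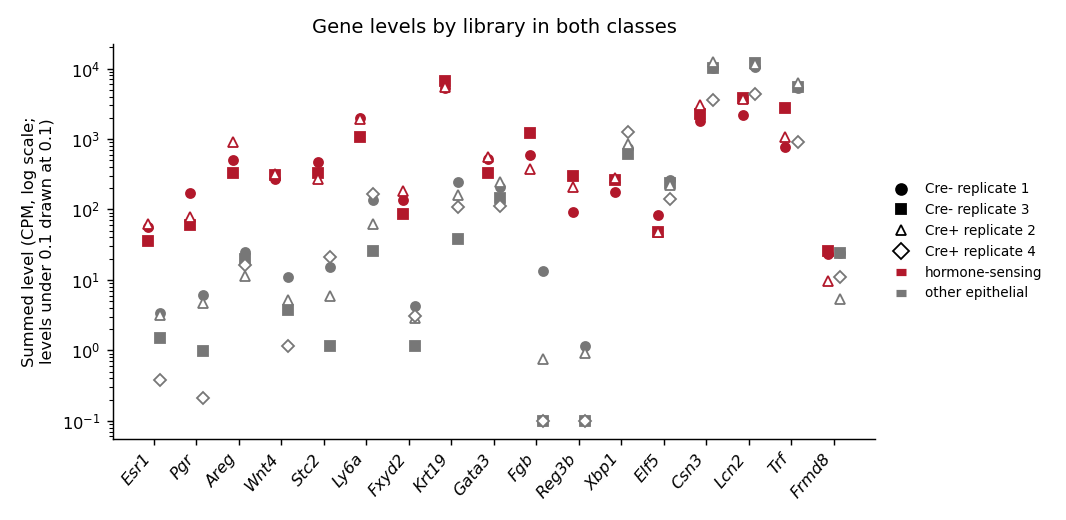
Level of 17 genes (CPM of the summed counts, log axis; levels under 0.1 drawn at 0.1) in hormone-sensing (red) and other epithelial cells (grey), 1 point per library, filled for Cre- and open for Cre+. Red points lie above grey ones from Esr1 to Reg3b, below them in Elf5 and Xbp1, and between 9.68 and 25.6 CPM, overlapping with grey, in Frmd8.

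Genes of the other luminal lineage were lower without exception among those called. All 10 luminal progenitor genes fell, with a median log2 fold change of -1.82. Csn3, a casein, had 1808, 2260 and 3011 CPM in hormone-sensing cells against 10062, 10243 and 12405 in the other cells of the same libraries and 3564 in Cre+ replicate 4 (log2 fold change -2.24 ± 0.13, edgeR adjusted p = 1.24e-05). Lcn2, an iron-binding secreted protein of progenitors, fell by 1.95, Kit by 2.22 and Ltf by 1.44 on the log2 scale. Of 8 tested alveolar and milk genes, 6 fell (Trf, Lalba, Wap, Csn1s1, Spp1 and Fabp3), with a median of -2.75. Lalba, the milk protein alpha-lactalbumin, had 65.4, 0 and 50.3 CPM against 41.7 to 515, so only its values within a library stood apart. Of 10 basal genes, 8 fell, and Krt5 and Trp63 were not called. Krt14, a basal keratin, had 8.00, 0 and 22.4 CPM against 44.2 to 329.

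The depth limits changed the size of these falls. Within the limits, Csn3 had 336 and 716 CPM in hormone-sensing cells of Cre- replicate 1 and Cre+ replicate 2 against 14905 and 17878 in other cells, and above them 1906 and 3228 against 9057 and 10320. Its log2 fold change was thus -5.18 with the limits applied and -2.24 without. Lcn2 moved from -1.95 to -4.22 and Lalba from -3.05 to -6.50. Receptor and signal genes kept large positive values: Esr1 was 4.66, Pgr 5.67, Areg 5.76, Wnt4 5.53 and Ly6a 3.89 with the limits applied. Pgr was lower in the deep cells, at 161 and 72.9 CPM above the limits against 290 and 135 within them. With the highest doublet scores removed Csn3 was at -2.82, between the value at all depths and the value within the limits.

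**Figure D4:**
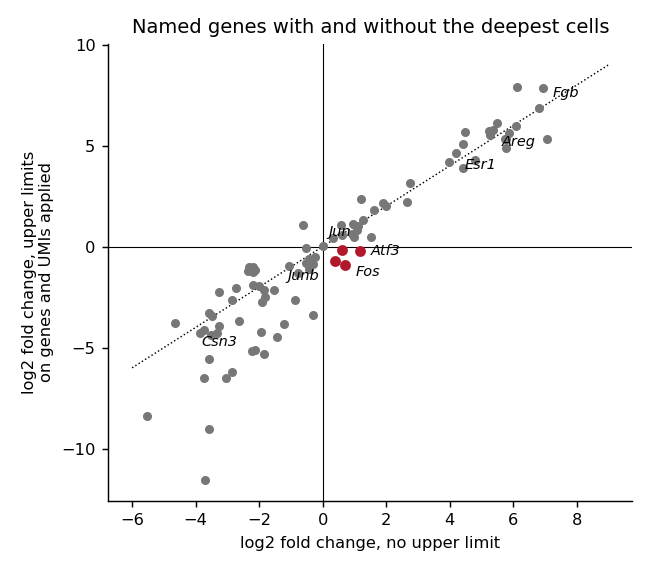
Log2 fold change of the 90 named genes, hormone-sensing against other epithelial cells, with all depths (x axis) and with the upper limits on genes and UMIs applied (y axis); the dotted line marks equal values. Fos, Jun, Junb and Atf3 (red) are above 0 on the x axis and below 0 on the y axis, and Csn3 lies at -2.24 and -5.18.

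Immediate early and heat shock genes, which respond quickly to stimulation or stress, changed direction with the depth limits in part. Of 10, 6 were higher (Fos, Jun, Fosb, Atf3, Hspa1a and Hspa1b) and none lower, with a median of 0.62. Fos had 3588, 2712 and 3739 CPM against 1410 to 2737, a log2 fold change of 0.70 ± 0.13 (edgeR adjusted p = 0.00404), yet it was -0.91 (adjusted p = 0.000226) with the upper limits applied. Jun (0.62 to -0.19) and Atf3 (1.18 to -0.22) also changed sign, without being called within the limits, and Junb, not called at first, was -0.73 (adjusted p = 0.0049).

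Cell cycle genes were uneven across libraries. Summed over 12 genes, they reached 427, 308 and 923 CPM in hormone-sensing cells of the same 3 libraries, against 392, 622 and 323 in their other epithelial cells. Hormone-sensing cells were thus above the rest in Cre+ replicate 2 and below it in the 6 cells of Cre- replicate 3. Of the 12, 4 were called higher in the 2-library test (Aurka, Mcm2, Top2a and Cdk1; list median 0.84) and 0 lower, but Top2a (log2 fold change 1.20) and Cdk1 (0.95) were not once Cre- replicate 3 was added (0.69, adjusted p = 0.261, and 0.53, adjusted p = 0.314). Mki67, the proliferation marker, had 52.9, 3.21 and 163 CPM against 39.6 to 88.1 (edgeR adjusted p = 0.0562). After thinning to 2000 UMIs, an Mki67 UMI was found in 5.52% of hormone-sensing and 4.80% of other cells of Cre- replicate 1. The exact binomial intervals were 3.25 to 8.69% and 3.91 to 5.82%. In Cre+ replicate 2 the shares were 11.4% and 3.26%, with intervals of 5.34 to 20.5% and 2.58 to 4.06%. These intervals cover counting error of cells within a library only, so their overlap is no test of a difference between classes.

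The 10 largest increases among genes with at least 50 CPM were in Reg3b, Fgb, Ido1, Calca, Upk3a, Tph1, Fam25c, Dmbt1, Muc13 and R3hdml. Fgb, the fibrinogen beta chain, had 589, 1218 and 378 CPM against 0, 0.0966, 0.742 and 13.3 in other cells. Reg3b, an antibacterial lectin, had 90.9, 301 and 211 CPM against 0 to 1.15, and Ido1, an enzyme of tryptophan breakdown, 69.8, 41.7 and 152 against 0 to 1.11. Tph1, which makes the serotonin precursor, had 55.4 and 99.3 CPM in the larger hormone-sensing samples and no UMI in the 6 cells of Cre- replicate 3. Muc13, a membrane mucin, had 126, 6.41 and 56.7 CPM against 0.0276 to 3.89. Counts of Reg3b and Fam25c may be shared with near-identical family members. Sprr1a and Krt6a, genes of squamous cells, rose as well (log2 fold changes 3.96 and 4.4), as 2 of 5 tested genes of that list, whereas Asprv1 fell by 0.87 and the list median was -0.52.

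The 10 largest decreases were in Bpifb5, Rbp7, Thrsp, Col9a1, Car6, Csn1s1, Ckb, Gm35696, Pglyrp1 and Emid1. Thrsp, a regulator of fatty acid synthesis, had 11.7, 103 and 29.0 CPM against 198 to 402. Emid1, an extracellular matrix gene, had 44.7, 99.4 and 34.6 CPM against 223 to 421, and Col9a1, a collagen chain, 10.4, 54.5 and 7.47 against 13.4 to 201. For Thrsp and Emid1 the ranges did not overlap. The 6 cells of Cre- replicate 3, which took no part in the 2-library test, had the same direction for 1487 of all 1972 genes called higher (75.4%) and 2151 of all 2316 called lower (92.9%). Their sum held 311901 UMIs, so a gene of low level can have no UMI there. Such a gene counts as lower wherever other cells hold a UMI, which raises the second share and reduces the first. Both are a description only. At a mean of 50 CPM or more in the higher class, the direction was shared by 617 of 692 genes called higher (89.2%) and 550 of 576 called lower (95.5%). For all 3373 tested genes of that level, called or not and in either direction, it was shared by 75.2%.

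**Figure D5:**
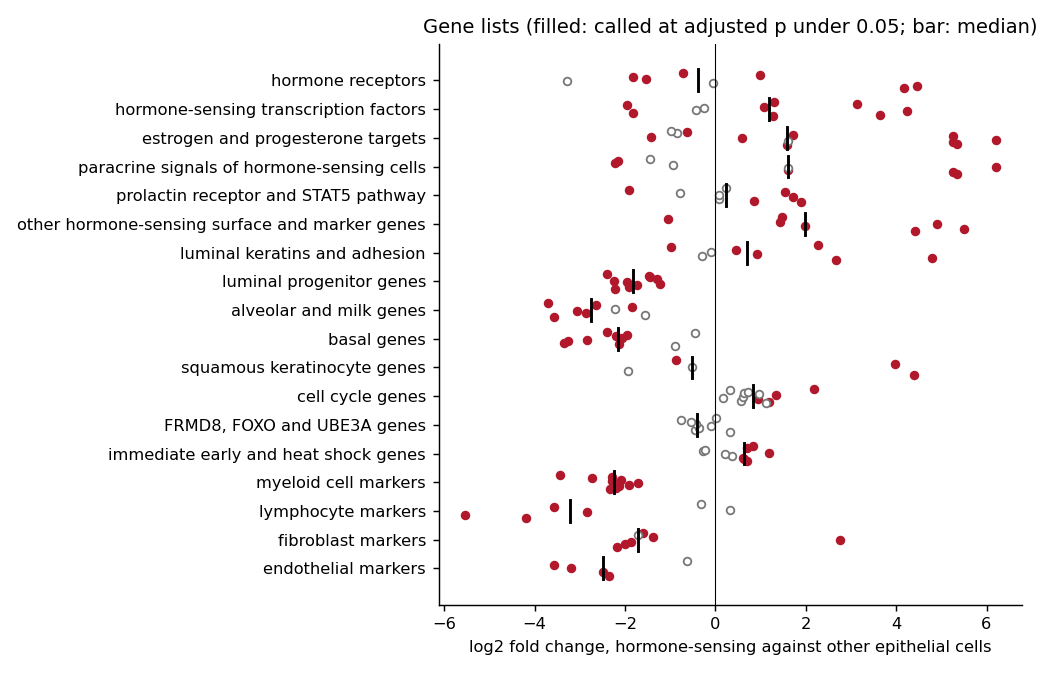
Log2 fold change of each gene (points) in 18 lists, hormone-sensing against other epithelial cells; filled points passed an edgeR adjusted p under 0.05 and bars mark list medians, with Tox drawn at its bound of -1.96. Luminal progenitor genes lie wholly below 0 (median -1.82), and Dcn, at 2.75, stands apart from the other fibroblast markers.

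Leukocyte and endothelial markers were low, as were most fibroblast markers, whereas Dcn was raised in Cre- replicate 1 and Cre+ replicate 2. Of 10 myeloid markers all fell (median -2.25), summing to 44.9 to 93.7 CPM in hormone-sensing cells, 282 to 727 in other epithelial cells and 24687 to 27870 in leukocytes. The gate excludes Ptprc and the comparison class does not. Of 6 tested lymphocyte markers 4 fell, with sums of 2.42 to 5.25 CPM and 5 to 9 of the 10 at 0 in hormone-sensing samples. Of 5 endothelial markers 4 fell, with sums of 3.56 to 6.41 CPM. Against comparison cells without Ptprc, Trbc2 turned to a log2 fold change of 1.88 (adjusted p = 0.0393) from -0.32. Of 7 fibroblast markers, 5 fell and Dcn, the matrix proteoglycan decorin, rose. Their sums were 150, 41.7 and 440 CPM in hormone-sensing cells and 62.5 to 278 in other epithelial cells. Dcn had 85.1, 9.62 and 392 CPM in hormone-sensing cells against 13.2 to 41.8 in other epithelial cells. Cre- replicate 3 thus did not share the increase. Dcn made up most of the sums of 150 and 440 CPM. Col1a1 had 15.8, 12.8 and 12.4 CPM against 70.0, 76.5 and 60.9 in other cells of the same libraries, and 14.0 in those of Cre+ replicate 4. Col3a1 had 26.8, 12.8 and 19.1 CPM against 75.3, 76.1 and 100, and 18.4 in Cre+ replicate 4. The part of fibroblast RNA in these levels was not tested.

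Cells with and without a Pgr UMI were set side by side as a description, since detection follows depth. Areg had 511 and 1025 CPM in the Pgr-positive cells of Cre- replicate 1 (288 cells) and Cre+ replicate 2 (63 cells), and 140 and 90.9 CPM in the Pgr-negative ones (35 and 18 cells). Wnt4 was close in both, at 270 and 322 against 236 and 261 CPM. Depth moved with Areg in Cre- replicate 1, where cells within the upper limits had 217 CPM and those above them 527, and less so in Cre+ replicate 2, with 787 and 923.

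Genotype within hormone-sensing cells could be compared only with the 6 cells of Cre- replicate 3 included, an alternative chosen after seeing the data that sets 1 Cre+ library against 2 Cre- ones and assumes the lone library to vary like the others. Of 11879 genes, 11 (0.0926%) passed edgeR's test, 10 higher and 1 lower in Cre+, whereas DESeq2 called 5, 3 higher and 2 lower. Frmd8, the targeted gene, had 23.7 and 25.6 CPM in Cre- replicates 1 and 3 and 9.68 in Cre+ replicate 2, a log2 fold change of -1.33 (edgeR adjusted p = 0.948, unadjusted 0.0151). In other epithelial cells it had 24.3 and 24.1 CPM in Cre- and 5.43 and 10.9 in Cre+, with no overlap (edgeR adjusted p = 0.9997; 0 of 16443 genes called, or 0%, and 453 at an unadjusted p under 0.05, against 63 called by DESeq2). In both classes, each Cre+ value of Frmd8 thus lay below each Cre- value. Cre removes only some exons of the floxed gene, and how far this changes counts at the end of its transcript was not tested.

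Esr1 and Pgr were not called between genotypes in hormone-sensing cells (log2 fold changes 0.26 and -0.71, edgeR adjusted p = 0.9998 for both). The lone Cre+ library had 61.1 CPM of Esr1 against 56.9 and 35.3, and 78.3 CPM of Pgr against 169 and 60.9. The called genes with the largest increases were a, Sftpd, Defb1, Aldh3a1 and Calca. The agouti gene a had 141 CPM in Cre+ replicate 2 against 0.134 and 0 in Cre- replicates 1 and 3, Sftpd, a surfactant protein, 150 against 4.24 and 0, and Defb1, a defensin, 86.6 against 2.56 and 0. Aldh3a1, an aldehyde dehydrogenase, had 56.7 CPM against 1.48 and 6.41, and Calca, the precursor of calcitonin and its gene-related peptide, 126 against 6.52 and 0. Wap, whey acidic protein, was the 1 called lower, at 7.19 CPM against 90.0 and 54.5. With 1 Cre+ library, genotype and the single tumor cannot be told apart.

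Frmd8, Foxo3 and Ube3a, unlike Esr1 and Pgr, were not called between the classes. In all, 0 of 8 genes of the FRMD8, FOXO and UBE3A list passed the test. Frmd8 had a log2 fold change of 0.32 ± 0.24 (edgeR adjusted p = 0.374) between hormone-sensing and other epithelial cells. Foxo3, a forkhead factor, had 34.0, 48.1 and 26.8 CPM against 41.4 to 49.6, a log2 fold change of -0.54 ± 0.18 (edgeR adjusted p = 0.0595). Ube3a, a ubiquitin ligase, had 120, 148 and 125 CPM against 102 to 132. Whether the contrast itself differed between genotypes was tested with all 3 libraries that held such cells, and 86 of 15084 genes (0.57%) were called by edgeR and 3 by DESeq2.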

How the data were processed

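Single-cell counts of 4 libraries were used as the authors deposited them, 1 UMI count per gene and barcode. Per the file headers they were made with Cell Ranger 6.1.2 (3 libraries, called cells) and 4 (Cre+ replicate 4, all barcodes). The processing notes name a human build although the gene IDs are mouse Ensembl IDs, so no coordinates were taken from the counts, and promoter windows came from RefSeq. The members, gene lists and tests were chosen with earlier results of these data known. Named genes were Esr1, Pgr, Frmd8, Foxo3, Ube3a, up to 4 members of each list with the highest mean CPM, and the 10 largest changes in each direction. The latter were taken among called genes with a mean of at least 50 CPM in the higher class and 1 direction in both libraries. Other list members, and a, were named after their values were seen. UMI counts were summed per library and class and tested with edgeR 4.0.16 (TMM, filterByExpr, library as replicate block; gate genes left out), with DESeq2 1.42.0 as an alternative. Libraries needed 10 hormone-sensing cells. The series' design speaks of 4 tumors and does not tie them to separate mice, so p-values take the library and not the mouse as the unit. In the main edgeR test between classes they measure how the contrast varies between 2 libraries, with the spread shared over genes. Each SE was derived from the log2 fold change and the F statistic of that test. Classes of 1 library share a tumor, which is why the library was the block. Simulated doublets were scored with Scrublet in scanpy 1.11.5, whose automatic threshold called 3 cells, so the highest scores were removed at 0.8% per 1000 cells. On simulated counts with 200 changed genes, this comparison recovered 84% at a log2 fold change of 2 and 11% at 1. The simulated spread was set alike for every gene and not taken from the data, so these shares need not hold for the real counts. Tests of shares were exact permutations (Python 3.11.15). Genotype tests planned within hormone-sensing cells could not be fitted with 10-cell libraries. Alternatives are described with their effect below. The value of 1 member of the hormone receptor list is not reported here.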

Additional observations from a re-analysis of the deposited data

Results flagged for a closer look

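The contrast between hormone-sensing and other epithelial cells differed between genotypes for 86 genes, 53 in the direction of a higher value in Cre+ (edgeR interaction test, 3 libraries, 1 of them of 6 cells, an alternative chosen after seeing the data). DESeq2 called 3. Among the named genes, the log2 difference of the contrast (Cre+ minus Cre-) was 3.54 for Dmbt1, 2.81 for Mki67, 2.41 for Tph1, 2.17 for Areg, 2.06 for Top2a, 1.88 for Dcn, 1.74 for Cdk1 and 1.53 for Socs2. It was -1.79 for Wap, -2.52 for Csn1s1, -3 for Krt6a and -4.66 for Upk3a. Upk3a, a urothelial plaque gene, had 329 CPM in the hormone-sensing cells of Cre+ replicate 2 against 40.8 and 16.03 in Cre-, but also 9.47 CPM in the other epithelial cells of that library against 0.0569 and 0. With 1 Cre+ library in this test, genotype and the single tumor cannot be told apart.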

How the results depend on the processing

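The difference in share between genotypes kept its direction under the planned gates and ranged from -11.2 to 1.35 percentage points when a replicate was left out, turning to 1.35 without Cre- replicate 1. The 4288 genes called between classes became 2390 with the upper limits, 2540 without the replicate block (class only, since with 2 libraries genotype and library coincide), and 2875 by DESeq2. Leaving 1 of those 2 libraries out leaves no test; with the 6-cell library added, the calls numbered 2064 without Cre- replicate 1 and 3019 without Cre+ replicate 2. Of 90 named genes, 51 kept their call and, where called, their direction in every alternative run. Fos (-0.91), Jun (-0.19), Junb (-0.73) and Atf3 (-0.22) reversed within the upper limits, Trbc2 (1.88) and Cd3d (0.45) against cells without Ptprc, and Top2a (-0.18) and Cdk1 (-0.19) with the 6-cell library and without Cre+ replicate 2; the cause was not tested. DESeq2 called 5 genes between genotypes in hormone-sensing cells, 3 for the difference of the contrast, and 63 in other epithelial cells, where leaving out a replicate gave 0 to 153. The 6 cells limit what Cre- replicate 3 can show.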
